A study of Mus musculus with 8 samples.

Results

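The genes described here are 10 transcription regulators of the cell cycle. They are the activator E2F genes E2f1, E2f2 and E2f3, the atypical E2F genes E2f7 and E2f8, the pocket protein genes Rb1, Rbl1 and Rbl2, and the mitotic factors Foxm1 and Mybl2. They were taken by name from a deposited table of raw counts with 55276 gene rows, and all 10 were present and passed the filter on low counts. The libraries came from the esophageal epithelium of C57BL6 mice, 14 to 15 weeks old, with no genetic change and no drug named in the labels. Live epithelial cells (DAPI negative, integrin beta-1 positive) were stained with Cyto-ID, which marks autophagic vesicles, and sorted on its brightness into a Cyto-ID Low and a Cyto-ID High fraction. Each of 2 female and 2 male animals (Female1, Female2, Male1 and Male2) gave 1 library of each fraction, which made 4 Low and 4 High libraries.

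In a resting cell the pocket proteins bind E2F factors and keep the genes of DNA replication silent. Cyclin D and cyclin E kinases phosphorylate the pocket proteins in G1, the activator E2Fs are released, and the replication genes are transcribed. The atypical E2Fs, which need no DP partner and bind no pocket protein, turn many of the same genes down again later in S phase. Rbl1 and Rbl2 also form the repressive DREAM complex with E2f4 and the MuvB core. In cycling cells the MuvB core exchanges its partners for B-Myb, the product of Mybl2, and then for Foxm1, and these complexes drive the genes of mitosis. In a stratified epithelium division is largely kept to the basal layer, and cells leave the cycle as they move up and differentiate.

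Promoter sequence is shown first, because several of the 10 genes are themselves regulated by E2F. RefSeq sequence of build GRCm38.p6 was searched over the 250 bases before each RefSeq start. Of the 10 genes 8 matched, with 10 windows, and Foxm1 and Rb1 did not. E2f2 and E2f3 have a pair of windows each. The only window of E2f1 and a window each of E2f2 and E2f3 lie within the GENCODE M21 span of the gene, so for E2f1 no sequence before the gene start given below was searched. Both strands were searched for a pair of elements. The E2F element was searched in 4 spellings, TTTCCCGC, TTTCGCGC, TTTGCCGC and TTTGGCGC, and the cell cycle homology region (CHR), which the MuvB core can contact, as TTTGAA. No match shared bases with another. An E2F spelling was present in 3 of the 10 windows (E2f3, E2f7 and Rbl1) and in 1.86% of all 32851 windows of this length in the table. Only exact spellings were counted, so a window without a match, such as that of Mybl2, can still hold another E2F sequence. The CHR letters were present in 4 of the 10 windows (E2f2, E2f3, E2f8 and Rbl2) and in 16% of all windows. The E2f2 match is in its window inside the gene, not in the one before the gene start. The windows of the 3 genes with an E2F spelling are given with that of E2f8, 5′ to 3′ on the strand of the gene, with the matches in capitals.
Rbl1: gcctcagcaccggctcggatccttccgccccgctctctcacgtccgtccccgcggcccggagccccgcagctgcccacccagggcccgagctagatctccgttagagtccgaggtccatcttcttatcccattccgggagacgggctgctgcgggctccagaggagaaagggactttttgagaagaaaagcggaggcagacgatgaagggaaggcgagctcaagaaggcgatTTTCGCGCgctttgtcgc
E2f7: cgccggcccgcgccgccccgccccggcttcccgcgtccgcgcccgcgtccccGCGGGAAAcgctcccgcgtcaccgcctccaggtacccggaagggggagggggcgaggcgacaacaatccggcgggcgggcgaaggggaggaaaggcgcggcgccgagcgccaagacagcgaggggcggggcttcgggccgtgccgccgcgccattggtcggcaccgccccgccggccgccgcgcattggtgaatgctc
E2f3: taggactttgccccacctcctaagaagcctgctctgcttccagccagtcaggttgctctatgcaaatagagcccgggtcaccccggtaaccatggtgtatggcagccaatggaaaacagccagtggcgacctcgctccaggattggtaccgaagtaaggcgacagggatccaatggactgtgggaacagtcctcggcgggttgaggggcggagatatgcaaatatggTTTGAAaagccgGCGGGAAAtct
E2f8: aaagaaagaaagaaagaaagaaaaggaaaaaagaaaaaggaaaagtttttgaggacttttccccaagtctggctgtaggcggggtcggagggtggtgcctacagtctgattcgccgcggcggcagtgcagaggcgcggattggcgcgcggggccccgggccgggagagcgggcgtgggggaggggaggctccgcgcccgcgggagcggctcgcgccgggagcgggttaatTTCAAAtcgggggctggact

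The Rbl1 window lies at chr2:157204535-157204784 on the minus strand, and its E2F spelling runs from 18 to 11 bases before the start. The E2f7 window is chr10:110745189-110745438 on the plus strand, with the E2F letters on the other strand 198 to 191 bases before the start. The E2f3 window, chr13:29986064-29986313 on the minus strand, holds the CHR letters 23 to 18 bases and the E2F letters 11 to 4 bases before the start. The E2f8 window, chr7:48881597-48881846 on the minus strand, holds the CHR letters on the other strand, 20 to 15 bases before the start. These matches describe letters and say nothing of binding. Of the genes shown, Rbl1, E2f7 and E2f3 were lower in Cyto-ID High and E2f8 was higher, as described next. Also lower were E2f1, Mybl2 and Rbl2, whose windows held no E2F spelling, and the Rbl2 window held the same CHR letters as that of E2f8. A link between the letters and the direction was not tested.

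Between the fractions, 9 of the 10 genes differed, 7 of them lower and 2 higher in Cyto-ID High (edgeR's quasi-likelihood test with Benjamini-Hochberg adjustment over 17344 genes, adjusted p under 0.05). The log2 fold changes of those that fell were −3.24 for Foxm1, −2.19 for Mybl2, between −1.68 and −1.57 for E2f7, E2f1 and Rbl1, −0.77 for Rbl2 and −0.59 for E2f3. Rb1 and E2f8 rose, and E2f2 did not pass. The fractions differed in much of the transcriptome: 48.7% of all genes tested passed, 23.4% higher and 25.3% lower in High, so a call by itself sets no gene apart. The median log2 fold change was −1.17 over the 10 genes and −0.09 over all genes tested. In bulk RNA, fewer cycling cells and less of a transcript per cell cannot be told apart. Levels below are CPM, a gene's counts relative to the library's effective size, with that size set by TMM scaling (a trimmed mean of gene-wise log ratios). Log2 fold changes are High minus Low.

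**Figure D1:**
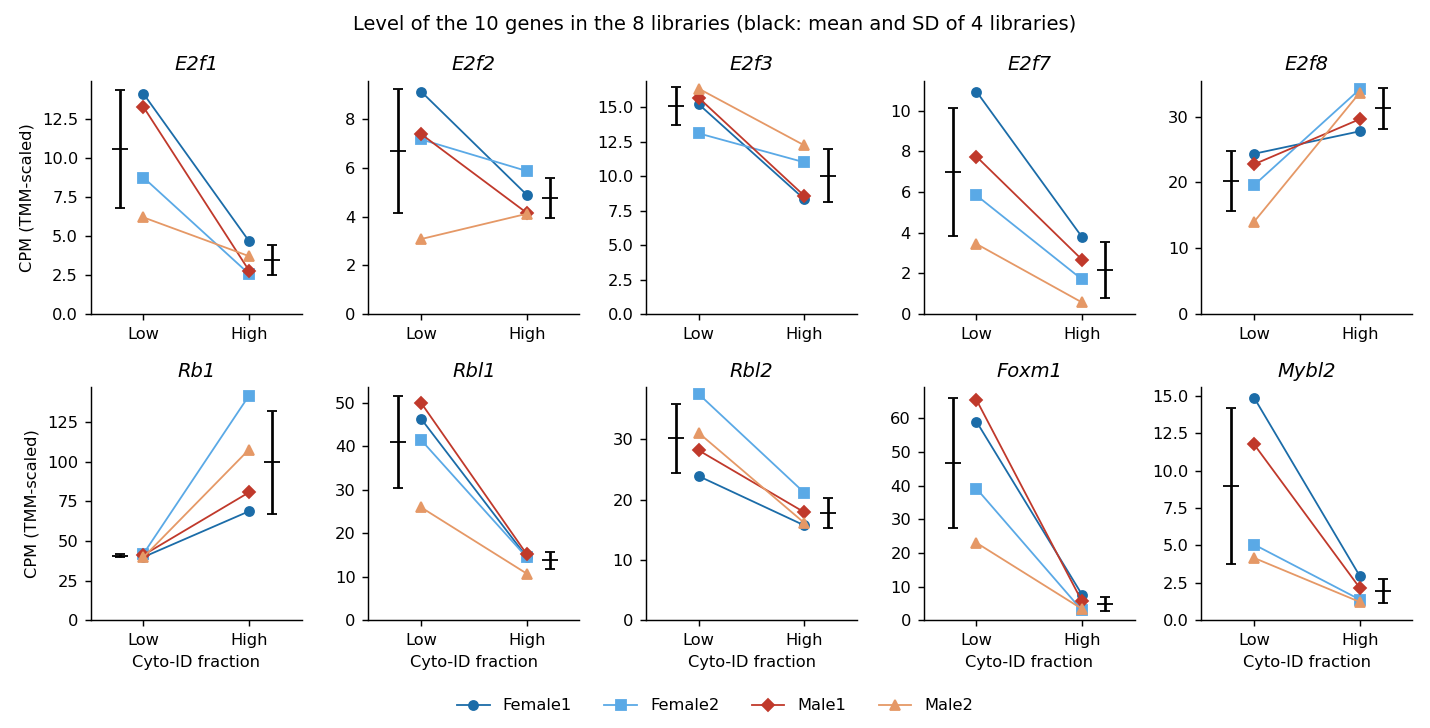
TMM-scaled CPM (vertical axis, linear, from 0) of each of the 10 genes in the Low and High library of each animal; lines join the libraries of 1 animal, and black marks give the mean and SD of 4 libraries. Foxm1 fell from between 23.0 and 65.4 to between 2.96 and 7.64 CPM, while Rb1 rose from about 40 to between 68.8 and 142 CPM.

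Of the activator E2Fs, E2f1 (chr2:154559407-154569892) is the classical inducer of replication genes. Its Low libraries held 14.1, 8.74, 13.3 and 6.19 CPM in Female1, Female2, Male1 and Male2, and its High libraries 4.67, 2.57, 2.78 and 3.70 CPM. Every High library lay below every Low library, which held for 24.9% of all genes tested. The mean fell from 10.6 ± 3.8 to 3.43 ± 0.96 CPM (mean ± SD of 4 libraries), which is a log2 change of −1.62 (SE 0.30, adjusted p by edgeR 0.00164).

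E2f3 (chr13:29906575-29986063), a further activator E2F, also fell. Its Low libraries held 15.2, 13.1, 15.7 and 16.4 CPM in Female1, Female2, Male1 and Male2, and its High libraries 8.34, 11.01, 8.58 and 12.2 CPM. The groups did not overlap, although the gap between the highest High and the lowest Low library was small. The log2 fold change was −0.59 (SE 0.17, adjusted p by edgeR 0.0152). Without the High library of Male1 it was −0.48 and no longer passed (adjusted p 0.0540), and without both libraries of Male1 the adjusted p was 0.0805, in a range of 7.94e-05 to 0.0805 over all alternatives.

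E2f2 (chr4:136172394-136196057), the third activator, did not pass. Its Low libraries held 9.14, 7.18, 7.39 and 3.08 CPM in Female1, Female2, Male1 and Male2, and the High libraries 4.90, 5.88, 4.16 and 4.12 CPM. It was lower in High in 3 of 4 animals, and Male2 had its lowest value of all 8 libraries in the Low fraction. The log2 fold change was −0.47 (SE 0.27, adjusted p by edgeR 0.179). It passed in 3 alternatives, at −0.68 without the Low library of Male2 (adjusted p 0.0197), at −0.62 without both libraries of Male2 (adjusted p 0.0478) and at −1.03 under total counts only (adjusted p 0.0108). Its adjusted p ranged from 0.0108 to 0.556 over all alternatives.

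The 2 atypical E2Fs moved in opposite directions. E2f7 (chr10:110745439-110787384), a repressor of replication genes, held 10.9, 5.83, 7.74 and 3.44 CPM in the Low libraries of Female1, Female2, Male1 and Male2, and 3.78, 1.70, 2.67 and 0.566 CPM in the High libraries. The ranges overlapped, since High Female1 lay above Low Male2, but within each of the 4 animals High was lower. The log2 fold change was −1.68 (SE 0.47, adjusted p by edgeR 0.0148), and the lowest library, High Male2, rested on 11 counts. The call was lost without Low Female1, Low Male1 or High Female2 (adjusted p 0.0677, 0.0696 and 0.0509). Without both libraries of Female2 the adjusted p was 0.0675, in a range of 1.31e-08 to 0.0696 over all alternatives. In the paired fit, which blocks on the animal, E2f7 had −1.79 (adjusted p by edgeR 0.000256).

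E2f8 (chr7:48866429-48881596) is the closest relative of E2f7 and shares its repressor function. It held 24.4, 19.6, 22.8 and 14.0 CPM in the Low libraries of Female1, Female2, Male1 and Male2, and 27.8, 34.2, 29.6 and 33.6 CPM in the High libraries. Every High library lay above every Low library, which held for 23.6% of all genes tested. The mean rose from 20.2 ± 4.6 to 31.3 ± 3.1 CPM (mean ± SD of 4 libraries), which is a log2 change of 0.64 (SE 0.18, adjusted p by edgeR 0.0158). It stayed only just under the threshold without High Female2 (adjusted p by edgeR 0.0484). With both libraries of an animal left out, the adjusted p by edgeR reached 0.0497. This rise depended on the scaling: under total counts only it was 0.07 and did not pass (adjusted p by edgeR 0.751), as the plot of 3 scalings shows. Under that scaling 1 of the 10 genes, Rb1, was higher, where 12.6% of all genes were, and 8 were lower, where 49.1% of all genes were. Relative to the median of all genes E2f8 was 0.73 higher under TMM and 0.70 under total counts. Taking off the median removes most of the scaling for any gene, so these 2 values are alike by construction and do not decide between the scalings. In GENCODE M21, 610 bases of its exons, or 11.2%, overlap exons of Gm2788 on the opposite strand, and whether reads were assigned by strand is not given in the sources used here. Gm2788 rose too, from 0.390 ± 0.173 to 1.66 ± 0.62 CPM, and its part in the E2f8 count was not tested.

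**Figure D2:**
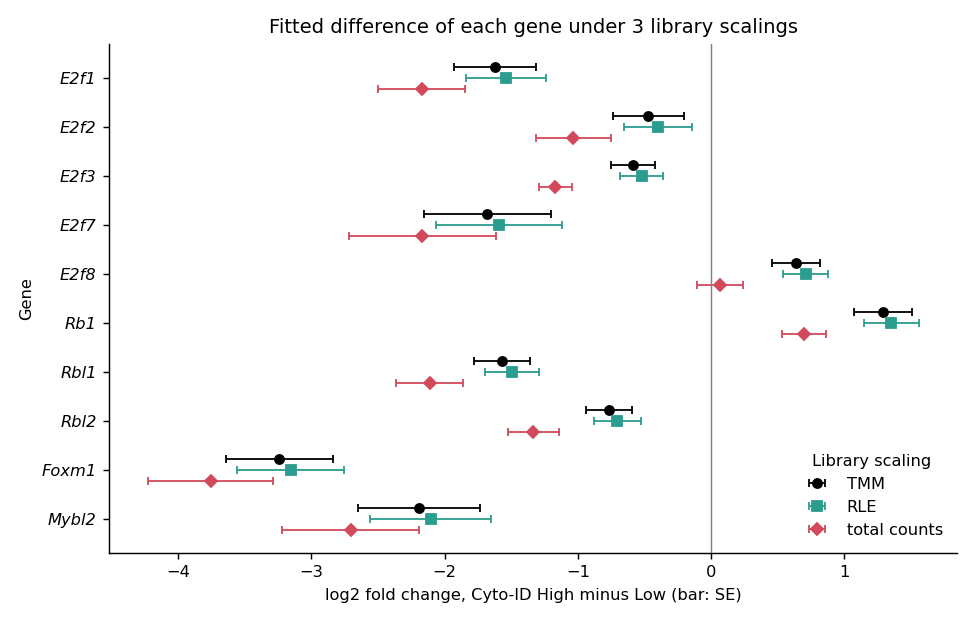
Log2 fold change of Cyto-ID High minus Low (horizontal axis, bars are standard errors) for the 10 genes, with libraries scaled by TMM, by relative log expression (RLE) or by total counts only. The total-count values lie to the left of the others for every gene shown, and E2f8 moves from 0.64 to 0.07.

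The pocket protein genes also split. Rb1 (chr14:73183673-73325822), the retinoblastoma gene, held 39.9, 42.0, 41.2 and 39.8 CPM in the Low libraries of Female1, Female2, Male1 and Male2, a narrow range. Its High libraries held 68.8, 142, 80.7 and 108 CPM, all above the Low libraries but spread among themselves. The mean rose from 40.8 ± 1.0 to 99.8 ± 32.4 CPM (mean ± SD of 4 libraries), a 2.44-fold rise (log2 fold change 1.29, SE 0.22, edgeR adjusted p 0.000851). Under total counts only it was 0.69 and still passed (adjusted p 0.00557). Exons of Lpar6 and Rcbtb2 overlap 6.78% and 8.11% of its exon length on the opposite strand, and both of those genes fell, with log2 fold changes of −0.89 and −1.91. Their part in the Rb1 count was not tested.

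Rbl1 (chr2:157145893-157204534), whose protein accompanies E2F in cycling cells, held 46.3, 41.4, 49.95 and 25.96 CPM in the Low libraries of Female1, Female2, Male1 and Male2. Its High libraries held 14.6, 14.5, 15.2 and 10.8 CPM, well below the Low libraries. The log2 fold change was −1.57 (SE 0.21, adjusted p by edgeR 0.000222), or 2.97-fold lower.

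Rbl2 (chr8:91070057-91123844), whose protein is the pocket protein of resting cells, fell as well. It held 23.9, 37.5, 28.2 and 31.1 CPM in the Low libraries of Female1, Female2, Male1 and Male2, and 15.7, 21.2, 17.9 and 16.2 CPM in the High libraries. The groups did not overlap, and the log2 fold change was −0.77 (SE 0.17, adjusted p by edgeR 0.00469). Exons of Aktip overlap 9.17% of its exon length on the opposite strand, and Aktip rose by 1.67 on the log2 scale (SE 0.19), which was not tested for a part in the Rbl2 count.

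Foxm1 (chr6:128362967-128376146), the forkhead factor of the mitotic programme, showed the largest change of the 10. Its Low libraries held 59.0, 39.1, 65.4 and 23.0 CPM in Female1, Female2, Male1 and Male2, and its High libraries 7.64, 2.96, 5.64 and 3.40 CPM. A wide gap separated the lowest Low from the highest High library. The mean fell from 46.6 ± 19.3 to 4.91 ± 2.17 CPM (mean ± SD of 4 libraries), which is a log2 change of −3.24 (SE 0.40, adjusted p by edgeR 0.000135), or 9.45-fold lower. Its exons share 144 bases with Tex52 on the same strand, a gene with at most 8 counts in any library.

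Mybl2 (chr2:163054687-163084688), which encodes B-Myb, held 14.9, 5.06, 11.7 and 4.17 CPM in the Low libraries of Female1, Female2, Male1 and Male2. In the High libraries it held 2.97, 1.39, 2.17 and 1.23 CPM, again below all Low libraries. The log2 fold change was −2.19 (SE 0.46, adjusted p by edgeR 0.00293). The spread between Low libraries was wide, with Female1 and Male1 above Female2 and Male2.

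Levels of different genes were compared per kilobase of exon. In the Low fraction Foxm1 stood highest, at 8.10 ± 3.36 CPM per kilobase, then Rbl1 at 6.83 ± 1.76 and Rb1 at 6.78 ± 0.17 (± SD of 4 libraries), and these 3 did not differ beyond their spread. Rbl2, E2f8, E2f1 and E2f3 followed at 3.99 ± 0.76, 3.71 ± 0.84, 3.35 ± 1.19 and 2.78 ± 0.26, each within the spread of its neighbour. Mybl2 and E2f2 stood lower, at 1.93 ± 1.12 and 1.37 ± 0.53. In the High fraction Rb1 stood highest at 16.6 ± 5.4 CPM per kilobase and E2f8 followed at 5.75 ± 0.57. Rbl2 and Rbl1 were next at 2.35 ± 0.33 and 2.30 ± 0.34 CPM per kilobase, within each other's spread. E2f3, E2f1 and E2f2 held 1.85 ± 0.35, 1.09 ± 0.30 and 0.976 ± 0.169, and Foxm1 and Mybl2 had dropped to 0.853 ± 0.377 and 0.420 ± 0.172. E2f7 was the lowest of the 10 in both fractions, at 0.775 ± 0.351 and 0.242 ± 0.152 CPM per kilobase. Exon length is the union over annotated transcripts, so a gene whose long forms are rarely made is understated.

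The scaling of the libraries moved the sizes and some calls, whereas a ratio of 2 genes within a library does not depend on it. For 9 ratios, log2((count + 0.5)/(count + 0.5)) was compared between the fractions by an exact two-sided permutation test over the 8 libraries, whose smallest p for 4 against 4 is 0.0286. Adjusted over the 9 ratios, 6 passed, each with p 0.0286 and adjusted p 0.0429 and the same direction in all 4 animals. A paired exact test of 4 animals cannot go below 0.125. With 9 ratios, one at the smallest p passes the adjustment when 6 are at it (adjusted p 0.0429) and not when 5 are (adjusted p 0.0514). Rbl1 to Rb1, Rbl2 to Rb1, E2f2 to E2f1 and E2f8 to E2f1 stayed at the smallest p with any 1 library left out. E2f8 to E2f7 left it (exact permutation p 0.0571) when any 1 of the 4 Low libraries was left out, and Mybl2 to Foxm1 without High Female2. The rest of the 6 missed the threshold as well, at an adjusted p of 0.0514, without Low Female1, Low Female2, Low Male1 or High Female2, through the adjustment alone. In all 6 ratios the High and Low libraries did not overlap, and leaving out a library cannot undo that. A p at or next to its smallest value is therefore no measure of how stable a ratio is.

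The ratio of Rbl1 to Rb1 counts in Cyto-ID Low was 1.16, 0.986, 1.21 and 0.652 in Female1, Female2, Male1 and Male2. In Cyto-ID High the ratio was 0.212, 0.102, 0.189 and 0.100. The log2 ratio fell by 2.78 (permutation adjusted p 0.0429). That of Rbl2 to Rb1 fell by 1.99, from −0.45 ± 0.25 to −2.44 ± 0.34 (SD, n = 4 each, exact permutation adjusted p 0.0429). The annotated exons of Rb1 and Rbl1 are of like length, 6015 and 5993 bases. The ratio of Rbl1 to Rbl2 changed by −0.79 and did not pass (exact permutation adjusted p 0.0964), although it was lower in High in all 4 animals. Without Low Male2 it was −1.01 and passed (exact permutation adjusted p 0.0429), in a range of 0.0429 to 0.161 over the alternatives.

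Among the E2Fs, the ratio of E2f8 to E2f7 was 2.23, 3.36, 2.94 and 4.07 in the Low libraries of Female1, Female2, Male1 and Male2. In the High libraries it was 7.31, 19.9, 11.03 and 56.9. The log2 ratio rose by 2.50 (exact permutation adjusted p 0.0429), with the last value resting on the 11 counts of E2f7 in High Male2. Without 1 of the Low libraries this ratio did not pass (exact permutation adjusted p 0.0643 without Low Male2 and 0.0857 without each of the others). E2f8 to E2f1 rose by 2.24 and E2f2 to E2f1 by 1.18 (exact permutation adjusted p 0.0429 for both). E2f3 to E2f1 was higher in all 4 animals, by 0.98 on average, and did not pass (exact permutation adjusted p 0.0735). The ratio of E2f7 to E2f1 differed by −0.26, higher in 2 animals and lower in the other two (exact permutation adjusted p 0.943). Mybl2 to Foxm1 rose by 1.16 (exact permutation adjusted p 0.0429), since Foxm1 fell further than Mybl2 in every animal.

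**Figure D3:**
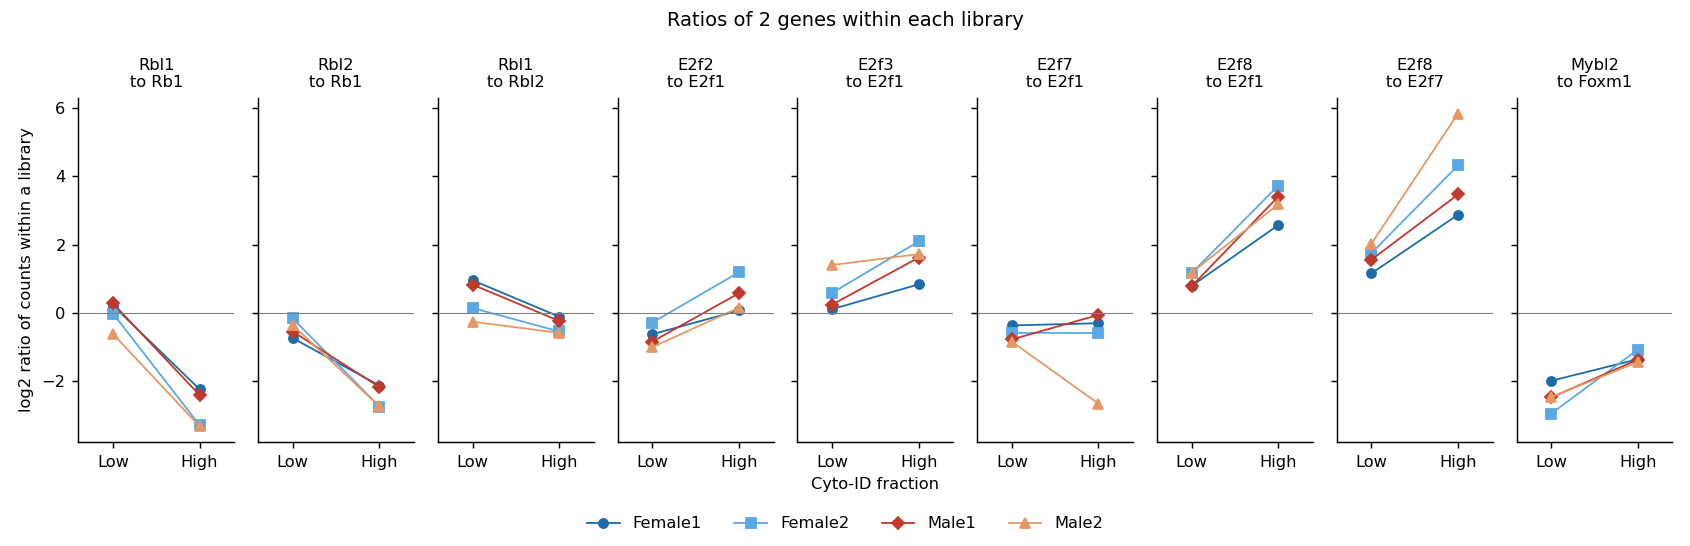
Log2 ratio of the counts of 2 genes within a library (vertical axis) in the Low and High library of each animal, joined by lines, for the 9 ratios compared. E2f8 to E2f7 and E2f8 to E2f1 climbed in all 4 animals and Rbl1 to Rb1 dropped in all 4, whereas E2f7 to E2f1 went both ways.

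The other E2F, DP and MuvB genes were examined as a list of 11, all tested. In Cyto-ID High 6 were lower, 0 higher and 5 did not pass, with a median log2 fold change of −0.69 beside −0.09 over all genes. The DP subunits, which pair with E2Fs to bind DNA, fell, Tfdp2 with −1.59 (SE 0.16, adjusted p by edgeR 4.84e-05) and Tfdp1 with −0.69 (SE 0.13, adjusted p by edgeR 0.00133). Mybl1, which encodes A-Myb, had a log2 fold change of −2.05 (SE 0.32) and Lin9, a MuvB subunit, one of −1.499 (SE 0.25). Rbbp4, a histone chaperone in MuvB, had −0.89 (SE 0.14), and E2f6, a repressor that binds no pocket protein, −0.96 (SE 0.15).

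The 5 that did not pass were E2f4, E2f5, Lin37, Lin52 and Lin54. E2f4, the E2F of the DREAM complex, stood at 50.9 ± 1.9 CPM in Low and 46.5 ± 12.9 in High (mean ± SD of 4 libraries), which is a log2 change of −0.14 (SE 0.18, adjusted p by edgeR 0.571). E2f5, the other pocket-bound repressor, had −0.20 (SE 0.17), Lin37 −0.20 (SE 0.20) and Lin52 −0.19 (SE 0.19). Lin54, the MuvB subunit that contacts the CHR, had 0.43 (SE 0.21, adjusted p by edgeR 0.121). Under total counts only 10 of the 11 were lower and the list's median was −1.25, where the median of all genes was −0.64.

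The G1 cyclins and kinases that phosphorylate pocket proteins formed a list of 8, of which 7 were lower in Cyto-ID High and 1 did not pass, with a median of −1.02. Ccnd2 fell from 214 ± 80 to 21.03 ± 10.06 CPM (mean ± SD of 4 libraries), which is a log2 change of −3.36 (SE 0.32, adjusted p by edgeR 3.12e-05). Ccnd1 fell by 1.63 (SE 0.19). Ccnd3, the third D-type cyclin, stood at 23.4 ± 3.8 and 23.5 ± 5.0 CPM, a log2 fold change of 0.00 (SE 0.16). The kinases fell, Cdk2 with −1.10 (SE 0.15), Cdk6 with −0.94 (SE 0.16) and Cdk4 with −0.40 (SE 0.14). So did the E cyclins, Ccne2 with −1.36 (SE 0.32) and Ccne1 with −0.50 (SE 0.19), the latter close to the threshold (adjusted p by edgeR 0.0493). The calls of Cdk4 and Ccne1 ended under RLE scaling, with DESeq2 and without the filter, which left 5 of the 8, and that of Ccne1 also without the sex covariate. With 1 library left out, the call of Cdk4 held only without High Male2, Low Female1 or Low Male1 (adjusted p by edgeR up to 0.114). That of Ccne1 held only without High Male2 or Low Male1 (adjusted p by edgeR up to 0.130). Without both libraries of Female2, 4 of the 8 were lower.

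Genes known as targets were taken from 2 lists. Of 36 G1/S targets of E2F, 32 were lower, 1 higher and 3 did not pass, with a median log2 fold change of −1.61. The 4 most abundant were Dnmt1, Rrm1, Pcna and Mcm6. Mcm6, of the replicative helicase, had −2.25 (SE 0.20) and Rrm1, of ribonucleotide reductase, −1.76 (SE 0.28). Pcna, the sliding clamp, fell too, with −0.53 (SE 0.18, adjusted p by edgeR 0.0306), and Dnmt1, the maintenance DNA methyltransferase, had −0.32 and did not pass (SE 0.20, adjusted p by edgeR 0.233). Cdc25a, a phosphatase that activates Cdk2, was the 1 higher gene, at 16.7 ± 1.2 CPM in Low and 24.1 ± 4.8 in High (± SD of 4 libraries), and was named after its value was seen, as were Prim1 and Chaf1a, which with Dnmt1 were the 3 that did not pass.

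Of 36 G2/M targets of Foxm1 and B-Myb, 35 were lower, 0 higher and 1 did not pass, with a median of −2.83. The 4 most abundant were Top2a, Mki67, Anln and Cdc20. Anln, an organiser of the cleavage furrow, had −3.51 (SE 0.46) and Cdc20, an activator of the anaphase-promoting complex, −3.03 (SE 0.37). The proliferation marker Mki67 had −3.08 (SE 0.48) and Top2a, which untangles DNA for mitosis, −2.97 (SE 0.47). The exception, Cdc25b, named after its value was seen, had 0.50 (SE 0.27, adjusted p by edgeR 0.154).

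**Figure D4:**
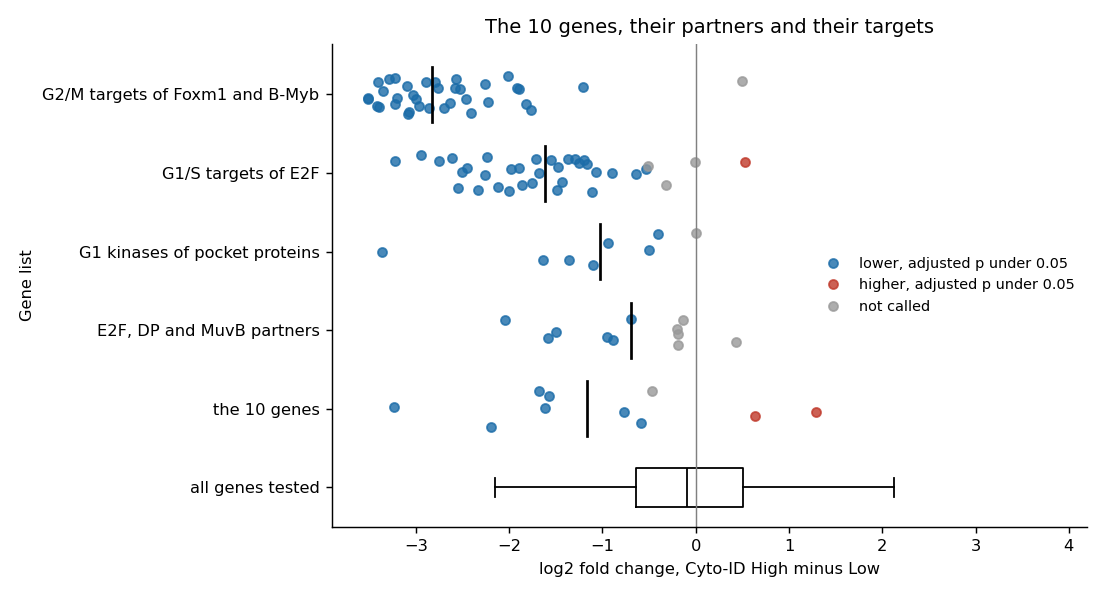
Log2 fold change of High minus Low (horizontal axis) of single genes (points) for the 10 genes, their partners, G1 kinases and targets, with vertical lines at list medians; the box gives median and quartiles of all genes tested and its whiskers the 5th to 95th percentiles. The G2/M targets centre at −2.83 and the G1/S targets at −1.61, while the partners spread from −2.05 to 0.43.

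By the likeness of their levels, measured as Pearson's r of log2 CPM over the 8 libraries among 10006 genes with a mean of at least 5 CPM, the genes nearest to Foxm1 were Cdc20 (0.999), Tpx2 (0.999) and Mcm2 (0.998). Nearest to E2f1 were Lig1 (0.994), Rdm1 (0.988) and Aaas (0.987), and nearest to Rb1 were Copb2 (0.995), Abi1 (0.993) and Paip2b (0.993). The 8 libraries share 4 animals and fall into 2 fractions, which sets much of each r.

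The animals differed within the Low fraction. The Low library of Male2 had the lowest level of 8 of the 10 genes among the Low libraries, E2f3 and Rbl2 being the exceptions, though for Rb1 by a small margin. The same library had the lowest summed level of the G2/M targets, 1043 CPM, where the other Low libraries held 2828, 1796 and 2967. It had the highest summed level of 12 suprabasal keratinocyte genes, 28108 CPM beside 14573, 21203 and 10253. The part of this in the levels of the 10 genes was not tested.

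Keratinocyte markers moved with the fractions too, although the labels call both fractions basal cells. All 10 basal genes fell (median −3.10), among them Krt5 with −3.38 (SE 0.28) and Krt14 with −2.11 (SE 0.41). All 12 suprabasal genes rose (median 3.09), among them Krt4 with 3.75 (SE 0.46) and Krt13 with 3.07 (SE 0.33), and the part of layer position in the members' differences was not tested. Of markers of other cells, 1 of 8 tested leukocyte genes was higher and 1 lower, 1 of 8 fibroblast genes and 1 of 8 muscle genes were lower and 0 of 8 endothelial genes passed. The called genes, named after their values were seen except Acta2, were Cd52 (0.93) and Cd207 (−2.24) of leukocytes, Dcn (−2.87) of fibroblasts and Acta2 (−1.54) of muscle. The abundant Cd74 (−0.99, SE 0.53) and Lyz2 (−0.26, SE 0.70), Col3a1 (−0.39, SE 0.61) and Col1a2 (−0.37, SE 0.64), Flt1 (0.36, SE 0.30) and Pecam1 (−0.41, SE 0.54), and Acta1 (−0.01, SE 0.59) did not pass. No marker was at 0 in all libraries. The summed fibroblast level was 378 to 580 CPM in Low and 41.4 to 612 in High, lowest in High Male2, as were those of leukocytes (54.9 to 91.1 and 9.88 to 91.9), endothelium (27.7 to 51.9 and 21.3 to 52.1) and muscle (35.03 to 56.7 and 5.04 to 50.1). Without both libraries of Male2, E2f1, E2f3, E2f7, Rbl1, Rbl2, Foxm1 and Mybl2 were still lower and Rb1 and E2f8 higher, and E2f2 passed as well (log2 fold change −0.62, edgeR adjusted p 0.0478).

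Sex was compared last. In a model with an interaction of sex and fraction, no member of the 10 and 0 of all 17344 genes, which is 0%, passed at the 0.05 threshold after adjustment in edgeR, and 19 of all genes but none of the 10 had an unadjusted p under 0.05. The male minus female estimate ran from −0.15 for E2f7 (SE 1.00) to 0.29 for E2f8 (SE 0.38). By chance alone a share near 0.05 of all genes would have an unadjusted p under 0.05, far more than 19, so this test was conservative. The interaction fit does not use the pairs, so differences between animals stay in its errors. With 2 animals of each sex these errors leave room for sizeable differences, and the lack of calls says little.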

How the data were processed

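RNA-seq libraries of sorted mouse esophageal epithelial cells were compared, 4 per Cyto-ID fraction. The authors deposited raw counts per gene symbol, and alignment with STAR 2.7.3 to GRCm38 is given, with DESeq2, per the submitters' processing notes. The counting tool, annotation and strand setting are not given in the sources used here. Totals were 26285150 to 29301054 counts per library. The lowest chi-square per degree of freedom between libraries of a fraction was 17.7, where sampling alone gives a value near unity, so no library was a repeat of another of its fraction. Spreads cover counting and biological error between animals, and no interval from counting alone is given.

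Counts were fitted in R 4.3.3 with edgeR 4.0.16 (filterByExpr, 17344 genes, TMM, glmQLFit and glmQLFTest) with sex as covariate, two-sided, at an adjusted p of 0.05. Ratios used an exact permutation test. The model was run on simulated counts of independent libraries, with a small share of genes changed equally in both directions. That does not test the scaling or the pairing in these data. Alternatives were RLE, total-count and upper-quartile scaling, 2 other filters, a robust fit, DESeq2 1.42.0, limma-voom (limma 3.58.1), a fit without sex, a replicate block for the animal, and left-out libraries. Upper-quartile scaling and leaving out both libraries of an animal were chosen after seeing the data. The protocol sorts a single suspension into both fractions, so libraries named for 1 animal are pairs. The model with sex and the ratio test do not use the pairs, and the alternative with the block does. Their deviations from the fraction means correlated at 0.43, 0.32, −0.02 and 0.28 across genes in Female1, Female2, Male1 and Male2, and at −0.37 to 0.35 between different animals.

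The 10 genes and the lists were chosen with earlier results of these data known. The text names all tested partners and G1 kinases, the 4 most abundant genes of each target list and the 2 most abundant tested genes of each marker list. It names the 3 genes most like E2f1, Foxm1 and Rb1, leaving out names of the Gm and Rik type. Gene positions and exon lengths were taken here from GENCODE M21 (GRCm38), which the sources do not name as the annotation of the counts.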

Additional observations from a re-analysis of the deposited data

Results flagged for a closer look

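In 60 groups of 4 libraries (the levels of the 10 genes, the list sums and the 9 ratios in each fraction) the distance of the highest or lowest library from the rest was examined with Dixon's criterion. Chance alone marks about 1 in 20 such groups, and 3 were marked. The Rbl1 level of High Male2, 10.8 CPM, stood below the other High libraries, which lay between 14.5 and 15.2 CPM. The summed level of 8 gastric epithelium genes stood far above the others in Female2, at 17.3 CPM in the Low library, where the others held at most 0.494, and at 109 CPM in the High library, where they held at most 1.34. By this criterion, which marks only wide gaps among 4 libraries, none of the 10 cell-cycle genes was set apart in Female2. Rb1 was highest in High Female2, at 142 CPM beside 68.8 to 108 in the other High libraries. Without High Female2 its log2 fold change was 1.03 (edgeR adjusted p 0.00174), beside 1.29 with all libraries. The part of the gastric transcripts in the results was not tested. Without both libraries of Female2 the 10 log2 fold changes kept their direction. E2f7 (edgeR adjusted p 0.0675) lost its call, as did the G1 kinases Cdk4, Ccne1 and Ccne2 (edgeR adjusted p 0.146, 0.0915 and 0.0522). The log2 fold changes of these kinases were then −0.32, −0.52 and −1.35, beside −0.40, −0.50 and −1.36 with all libraries. Ccne1 also lost its call without both libraries of any other animal, and Cdk4 without those of Male1 or Male2.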

How the results depend on the processing

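Over 10 alternatives of scaling, filter, test and covariate, 8 of the 10 genes kept their call and direction, and E2f8 and E2f2 changed only under total counts. That scaling moved the median of all genes tested by −0.55 and gave 20.5% of called genes as higher in place of 48.0% (2194 higher and 8514 lower, beside 4055 and 4385). Under it 1 of the 10 genes was higher, E2f2 passed at −1.03 (edgeR adjusted p 0.0108) and E2f8 was at 0.067 (edgeR adjusted p 0.751). Relative to the median of all genes, E2f8 was 0.73 higher under TMM and 0.70 under total counts, which are alike by construction. The list medians were then −1.25 for the partners (10 lower), −1.57 for the G1 kinases (−1.13 under upper-quartile scaling), −2.13 for the G1/S and −3.34 for the G2/M targets.

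With the animal as a replicate block no call among the 10 genes changed. E2f7 had −1.79 (edgeR adjusted p 0.000256) and E2f2 −0.42 (edgeR adjusted p 0.173), in this paired fit.

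The G1 kinases called lower numbered 5 to 8 over those 10 alternatives and 5 to 7 with 1 library left out. With 1 library left out, E2f7 ranged from −2.11 to −1.37, E2f3 from −0.69 to −0.48 and E2f2 from −0.68 to −0.22. The G1/S median ranged from −1.81 to −1.33 and the G2/M median from −3.14 to −2.38. The weaker ends came without Low Male1, and the stronger ends without High Male1 (G1/S) and High Female1 (G2/M). With both libraries of an animal left out, E2f7 was at −1.62 (Female2), E2f3 at −0.51 (Male1), E2f2 at −0.62 (Male2), and 4 G1 kinases were lower (Female2).

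The 6 ratios that passed did so as well without High Female1, High Male1 or High Male2, and 5 of them without Low Male2, which let Rbl1 to Rbl2 pass. Leaving out a library gave −2.97 to −2.61 for Rbl1 to Rb1, −2.10 to −1.89 for Rbl2 to Rb1, −1.01 to −0.61 for Rbl1 to Rbl2, 0.95 to 1.33 for E2f2 to E2f1, 0.81 to 1.25 for E2f3 to E2f1, 2.07 to 2.46 for E2f8 to E2f1, 1.93 to 2.92 for E2f8 to E2f7 and 1.00 to 1.32 for Mybl2 to Foxm1. E2f7 to E2f1 ran from −0.54 to 0.33 and reversed to 0.33 without High Male2.

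The medians of other cell types changed sign with the libraries left out (a single one or both of an animal), from −1.05 to 0.14 for leukocytes, −1.13 to 0.17 for fibroblasts, −0.97 to 0.14 for endothelium and −0.93 to 0.21 for muscle. They were above 0 without both libraries of Male2, without High Male2 (0.05 leukocytes, 0.0012 fibroblasts, 0.11 muscle) and without High Female2 (0.01, muscle only). Counts were lowest for E2f7 and Mybl2, 11 to 98 and 24 to 77 in the High libraries. Their standard errors were 0.47 and 0.46, and 0.21 and 0.18 with the replicate block.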
